A study of Mus musculus with 22 samples.

Results

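The epididymal fat of 12 mice kept under normoxia is described here: which genes gave the brightest signal, which differed least and most between the mice, and which of the variable genes moved together. These are 12 of the 22 mice of a study on acute oxygen restriction and white adipose tissue, and no comparison with the mice under hypoxia is made. All 12 were male C57BL/6JOlaHsd mice, an inbred strain with no engineered allele named in the labels, that arrived at 10 weeks of age. They were housed singly and adapted for 3 weeks on purified feed that drew 10% of its energy from fat. Feed at 40% followed for the last 6 weeks. The treatment protocol also speaks of low-fat feeding but does not say of which animals, and diet did not enter any fit. The mice were fasted, stayed at 20.9% oxygen for 6 hours in an indirect calorimetry system, and were decapitated once the exposure ended. Each mouse gave 1 array, on which its own Cy5-labelled RNA met a Cy3-labelled pool of all samples, which includes the mice under hypoxia. The series text calls the samples biological replicates.

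A gene was kept where a probe was well above background in Cy5 on at least 10 of the 12 arrays, and its brightest such probe stands for it. This kept 12406 of the 34797 gene names on the array. At the edge of the rule, 3354 gene names reached exactly 10 arrays and were kept, and 1622 reached 9 and were not. The level of a gene is its background-corrected log2 Cy5 signal, and its spread is the standard deviation (SD) over mice of the log2 Cy5/Cy3 ratio. Both are readouts, so ranks by level or spread are given as description with no test. Probes bind with different strength, so a brighter probe does not show more RNA copies.

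White adipose tissue stores triglyceride in adipocytes, which secrete hormones such as leptin and adiponectin. Between the adipocytes lie vessels, progenitor cells, macrophages and lymphocytes, and a mesothelial layer covers the pad. The epididymal pad is attached to the epididymis, the duct in which sperm mature, whose epithelium secretes proteins such as the peroxidase Gpx5. In bulk tissue, fewer cells of a type and less RNA per cell cannot be told apart.

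The arrays themselves differed. Between 18.3% and 66.3% of biological spots were well above background in Cy5. The lowest shares were those of mouse 5 (18.3%) and mouse 3 (18.9%), whose arrays lie together on slide 1, and the next lowest was 29.8%. Cy3 was well above background on more than 80% of spots for mouse 2 (81.8%) and mouse 6 (85.8%), against 40.6% to 62.8% on the others. Results are therefore also given without mice 3 and 5. The labelled tissue matched its markers: all 8 adipocyte markers (Adipoq, Plin1, Fabp4, Cidec, Lep, Retn, Cfd and Lipe) were well above background on all 12 arrays.

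The brightest probes belonged partly to abundant transcripts of fat and of every cell, and partly to probes that carry repeated sequence. The probe of Rn18s, which encodes 18S ribosomal RNA, led with a mean log2 Cy5 of 16.39. It ran from 13.37 through a median of 16.71 to 17.91 over the mice. Rn18s keeps the name in the files and was singled out after its values were seen. Slc10a1, a bile acid carrier known from liver, followed at 16.21. The probes of Rn18s and Slc10a1 belong to a bright group of 46 genes described below, in which 28 probes share sequence with probes of other genes. Sparc, a glycoprotein of the extracellular matrix, had a mean of 16.04. Fabp4, the fatty acid carrier of adipocytes, had 15.50 and ran from 12.32 to 17.60 with a median of 15.98. COX1, the cytochrome c oxidase subunit encoded in mitochondrial DNA, had 15.47, the haemoglobin chain gene Hba-a2 15.24 and the actin gene Actb 15.23. On each of these probes mice 3 and 5 gave the lowest Cy5 signals.

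Adipocyte genes stood close behind. Cfd, which encodes the secreted protease adipsin, had a mean log2 Cy5 of 15.15, Car3, a carbonic anhydrase, 15.14, the lipid droplet gene Cidec 14.86 and the adiponectin gene Adipoq 14.62. Leptin (Lep) was far dimmer at 10.04, rank 2549 of 12406. The order of the brightest genes was not fixed from mouse to mouse. Over 20 pairs of neighbours among the 21 brightest named genes, the mean difference within an array was smaller than its own SD over mice in 19. In 0 of the 20 pairs was the first gene the brighter one in every mouse measured. Rn18s, for example, was brighter than Slc10a1 in 8 of 12 mice.

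Other genes in this order, such as the transcription factor gene Elk1, had probes that share sequence with probes of other genes. These windows of 30 bases, 5′ to 3′ as on the probe, are shown because the run of 20 bases in capitals recurs in the probes of other genes. The first 3 hold a word of the short interspersed repeat B1 and the next 3 a word of the repeat B2, named here from general knowledge of mouse repeats.

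Glrx2: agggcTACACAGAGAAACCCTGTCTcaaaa
Med16: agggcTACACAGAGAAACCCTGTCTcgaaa
Elk1: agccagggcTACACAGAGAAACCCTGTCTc
Fam177a2: tggtgTCTGAAGACAGCTACAGTGTtctta
Synrg: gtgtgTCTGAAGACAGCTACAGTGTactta
Phyhd1: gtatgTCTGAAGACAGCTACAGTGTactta
Rhox8: agAAGAAGAAGAAGAAGAAGAAgaagaaga
Spag7: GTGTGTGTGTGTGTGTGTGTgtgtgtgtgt

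The B1 word was searched on both strands and lies in probes of 9 gene names on the array, 6 of them among the 250 brightest genes. The B2 word lies in probes of 12 gene names, 9 of them among the 250 brightest. The windows of Rhox8 and Spag7 stand for runs of a triplet, found for 41 gene names, and of a dinucleotide, found for 70. The files place the whole probe of Glrx2, which encodes a mitochondrial glutaredoxin, at chr1:145596708-145596767 on the plus strand of mm9. They place that of Synrg, an adaptor protein of vesicle traffic, at chr11:83855517-83855576 on the plus strand. A genome of that build was not used here, so the exon or untranslated region under a probe is not given.

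Of the 50 brightest genes, 16 (32%) had a probe sharing 20 bases with probes of at least 5 other genes, against 3.14% of all 12406. Among the 100 brightest, 13 such genes had a second probe that passed, and the second probes had a median log2 Cy5 of 8.96. The Glrx2 probe above had a mean of 16.07, and the gene's second probe had 8.96, with a correlation of -0.56 between the 2 probes over the mice. Med16, a Mediator subunit, had 15.73 on the probe above and 8.28 on its second. A shared word was not needed for such a gap: Zfp628, a zinc finger gene whose probe shares none, had 15.50 and 6.90. Sparc, which also shares none, had 16.04 and 12.05.

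**Figure D1:**
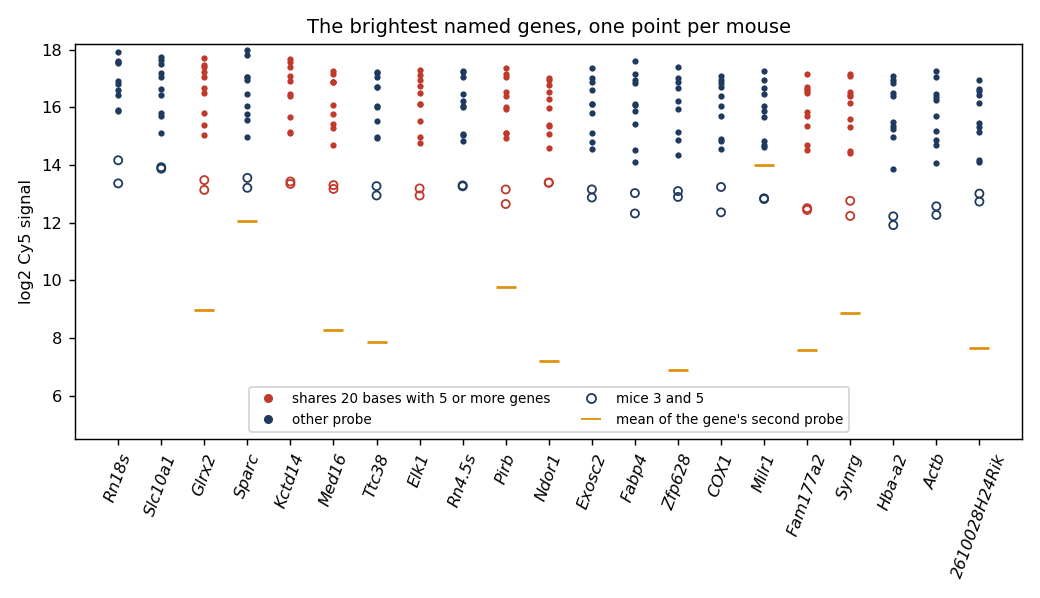
Log2 Cy5 signal of the 21 brightest named genes in each of the 12 mice, with mice 3 and 5 as open circles and the mean of the gene's second probe, where one passed, as an orange bar. Mice 3 and 5 lie lowest for every gene shown, and the second probe of Glrx2 sits at 8.96 while its brightest probe averages 16.07.

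The spread of a gene over the 12 mice had a median SD of 0.25 on the log2 scale and ran from 0.06 to 2.27. It passed 0.5 in 433 genes and 1 in 70. Without mice 3 and 5 the median was 0.24 and 361 genes passed 0.5. Leaving out mouse 6 alone gave a median of 0.225, with 412 genes over 0.5. Leaving out mice 2 and 6 gave 0.226, with 386 genes. The median thus fell more without mouse 6 than without mice 3 and 5, and the count fell more without mice 3 and 5. Part of any spread is measurement. Replicate spots of the same probe within an array differed with a median SD of 0.19 (194 probes of 10 spots). After quantile normalization of each channel, the median SD of a gene was 0.26 in Cy5, which holds the mice, and 0.094 in Cy3, which holds the same pool on every array. A second probe of the same gene followed the first only loosely for typical genes, with a median correlation over the mice of 0.29 among 2229 genes. For the 200 genes with the largest SD it was 0.92, over the 32 of them with a second probe, with a split between groups of these genes that is given with each group.

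**Figure D2:**
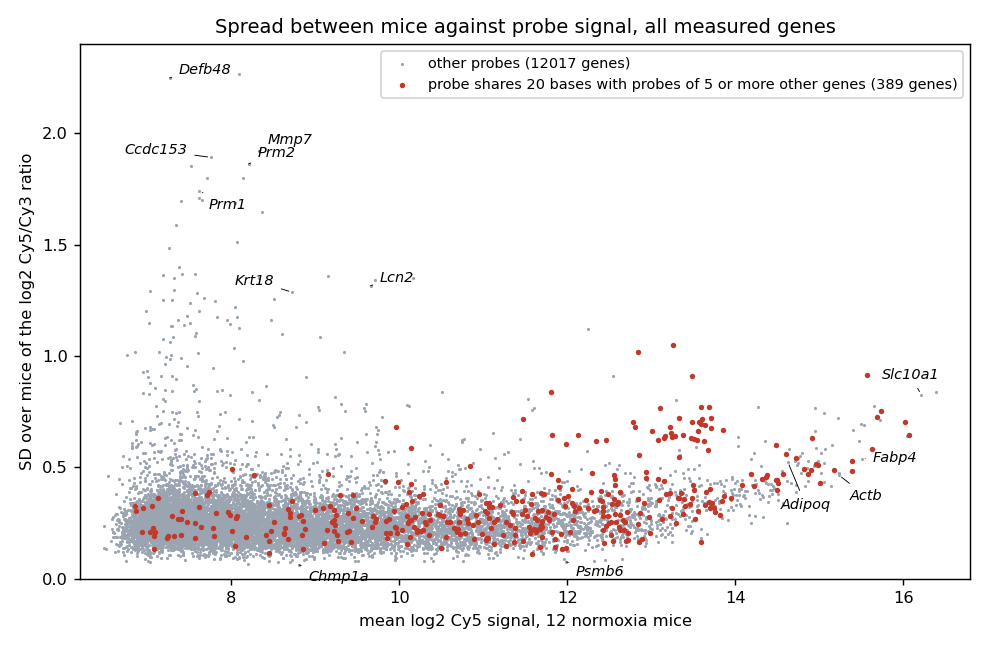
SD over 12 mice of the log2 Cy5/Cy3 ratio against mean log2 Cy5 for 12406 genes, with the 389 genes whose probe shares 20 bases with probes of at least 5 other genes in red. The genes of largest SD, such as Defb48 and Prm2, lie at low signal, and a second set with SD near 0.5 to 1 lies at the bright end.

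The genes of smallest spread are given as values on 1 probe each. Chmp1a, a subunit of the ESCRT-III membrane-cutting machinery, had the smallest SD, 0.062 (95% interval 0.044 to 0.106, n = 12). Its log2 ratio ran from -0.17 in mouse 9 to 0.06 in mouse 1. Psmb6, a proteasome subunit, had an SD of 0.076 and ratios between 0.02 and 0.31. The deubiquitinase gene Usp5 had 0.078, the sorting nexin gene Snx5 0.081, and Slc25a4, the mitochondrial ADP/ATP carrier, 0.085. Kat8, a histone acetyltransferase, Cnot2, a subunit of the deadenylase complex, and Copa, a coat protein of Golgi vesicles, were also among the 20 smallest. The interval of Chmp1a reaches above the SD of each of the other genes named here, so their order is not settled. That interval takes no account of the choice of Chmp1a as the smallest. In the 5% of genes with the smallest SD, the second probe had a median SD of 0.23 and a median correlation of 0.18 (114 genes). Over all genes with 2 probes the median SD of the second was 0.25. The first probe's SD chose these genes, so a larger second SD and a low correlation follow in part from that choice.

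Genes often used as references differed in spread with and without mice 3 and 5. The 20 measured of 22 listed had a median SD of 0.30, above the 0.25 of all genes. Actb had an SD of 0.47, with ratios of 1.60 in mouse 3 and 1.51 in mouse 5 and between 0.23 and 0.70 in the other mice, so that those 2 mice did not overlap with the rest. Without them its SD was 0.15. Ppia, a prolyl isomerase, moved from 0.43 to 0.16 in the same way. Gapdh, a glycolytic enzyme, moved from 0.40 to 0.16, although by the files its brightest probe lies on chromosome 7, and RefSeq puts Gapdh on 6. Hprt, of purine salvage, had 0.19 with all mice and Sdha, of succinate dehydrogenase, 0.16. The median of the list without mice 3 and 5 was 0.19, below the 0.24 of all genes.

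Ribosomal protein genes showed the same dependence. All 51 listed were measured, with a median SD of 0.33 and of 0.20 without mice 3 and 5. Their mean ratio, centred per gene, was 0.63 in mouse 5 and 0.28 in mouse 3 and between -0.21 and 0.11 in the others. Rps14 had the largest SD of the list, 0.59. The 50 listed genes of oxidative phosphorylation had a median SD of 0.22 with all mice and 0.21 without mice 3 and 5, and 4 of them lay among the 5% of genes with the smallest SD. Endothelial genes had a median of 0.24 over 18 measured of 20, with Flt1, a VEGF receptor, at 0.10 and the junction genes Cldn5 at 0.44 and Cdh5 at 0.43.

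Adipocyte genes had a larger median SD than all genes. For the 8 markers it was 0.43, and 0.31 without mice 3 and 5, against 0.25 and 0.24. These markers are bright, with a median log2 Cy5 of 14.39 against 8.38 for all genes. The 250 brightest genes had a median SD of 0.42, and 0.23 without mice 3 and 5. The markers were thus close to bright genes in general over 12 mice, and above them without mice 3 and 5. Adipoq had a ratio of 1.68 in mouse 3, between -0.43 and 0.56 in the others, and an SD of 0.53 (0.32 without mice 3 and 5). Cfd did not depend on those mice: its SD was 0.60 with and 0.66 without them, with the lowest ratio in mouse 1 (-0.93) and the highest in mouse 12 (1.24). Lep ran from -0.86 in mouse 11 through a median of -0.43 to 0.28 in mouse 1. Mest, known as a marker of fat expansion, ran from -1.07 in mouse 12 to 0.74 in mouse 1 (SD 0.52), and its second probe correlated with the first at 0.97. Fatty acid synthesis genes, 19 measured of 22, had a median SD of 0.35 with all mice and 0.345 without mice 3 and 5, below that of the 8 markers in the first set and above it in the second. Fatty acid synthase (Fasn) had 0.21.

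**Figure D3:**
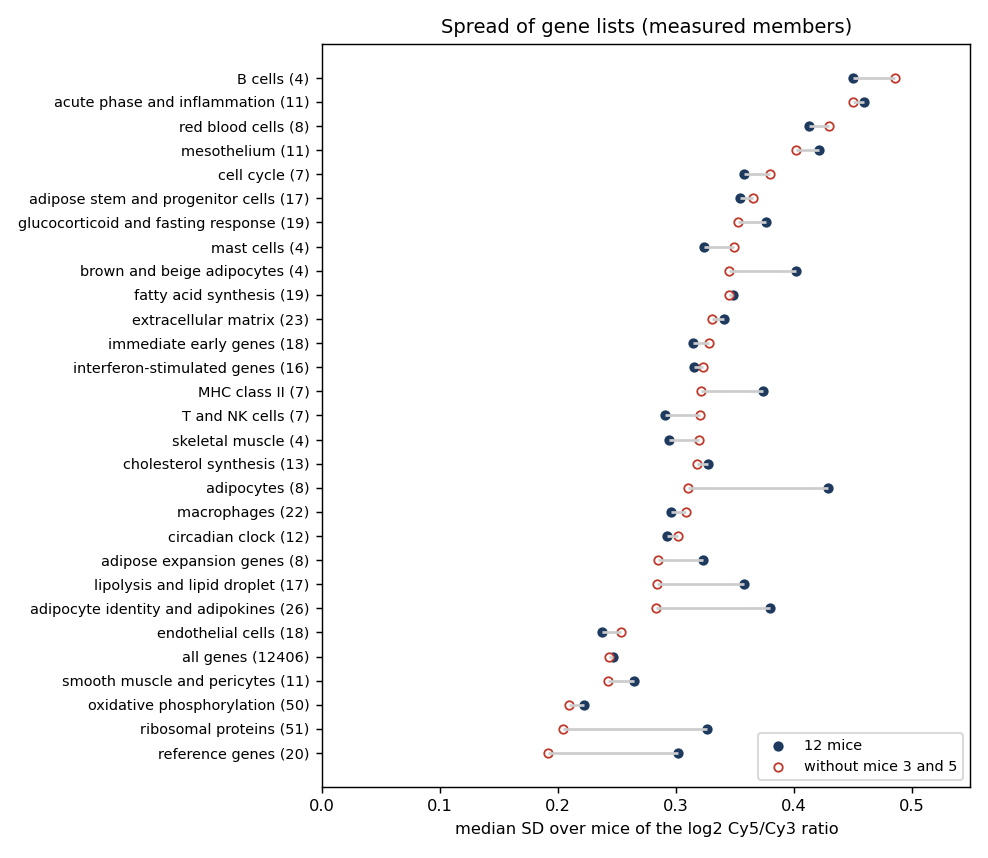
Median SD over mice of the measured members of 28 gene lists (at least 4 members each, number in brackets) and of all genes, with all 12 mice (filled) and without mice 3 and 5 (open). Reference genes move from 0.30 to 0.19 and ribosomal protein genes from 0.33 to 0.20, while all genes stand at 0.25 and 0.24.

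The largest spreads exceeded those of the 8 adipocyte markers, whose SDs reached at most 0.60. Among genes with a symbol, Defb48, a beta-defensin, had the largest SD, 2.25 (95% interval 1.59 to 3.82). The interval assumes normally distributed values and takes no account of the choice of the gene by its SD. The log2 ratio of Defb48 ran from -4.21 through a median of -3.11 to 3.33 in mouse 5. The only other value above 0 was 1.00 in mouse 6. Mmp7, a matrix metalloproteinase of epithelia, had an SD of 1.92. It ran from -3.85 through a median of -1.74 to 1.52, and mice 5, 2 and 6 were the 3 above 0. Lrp2, the endocytic receptor megalin of absorptive epithelia, had 1.51, with ratios of 1.66 in mouse 5, 1.62 in mouse 2 and 0.63 in mouse 6 and from -2.52 to -0.12 in the others. Prm2 and Prm1, the protamines that pack sperm DNA, had SDs of 1.86 and 1.74. Prm2 reached 2.77 in mouse 1, and the next highest value was 0.50 in mouse 5, with a median of -1.49 and a lowest value of -3.35. Without mice 3 and 5, Mmp7 kept an SD of 1.80, Lrp2 1.38 and Prm2 1.96, and Defb48 had 1.52. At the edge of the 200 most variable genes lay Aldoc with an SD of 0.652 and 2010016I18Rik, the next gene and outside, also with 0.652.

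The 200 genes with the largest SD fell into few groups. At a mean correlation of 0.6, they gave groups of 160, 22 and 5 genes. At 0.8, chosen after the first result was seen, there were 7 groups of at least 5 genes. Since the genes were chosen for their spread and grouped by their correlation, no group was tested. The choice of these genes depends on the processing: 121 of the 200 were also chosen with Feature Extraction's log ratio, 92 with plain background subtraction and 37 in the deposited value table.

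The largest of the 7 held 95 genes, with a median pairwise correlation of 0.94 over the 12 mice. Among them were Mmp7, Lrp2, the keratin genes Krt8 and Krt18, the tight junction genes Cldn3 and Cldn7, the folate receptor gene Folr1, the transcription factor gene Hnf4a, and genes of motile cilia such as Dnah6 and Dynlrb2. Their mean centred ratio was 1.86 in mouse 2, 1.71 in mouse 5, 1.14 in mouse 6 and 0.32 in mouse 3, and between -1.10 and -0.03 in the other 8. After quantile normalization the median SD of these genes was 1.02 in Cy5 and 0.11 in Cy3. The 11 genes with a second probe had a median correlation of 0.95 between the probes. Of the slide mates of the 3 high mice, mouse 3, which shares slide 1 with mouse 5, was the only other mouse above 0. On the array of mouse 3, 39 of the 95 genes were not well above background, against 0 on that of mouse 5. The background correction draws ratios of dim spots toward 0, which limits what the value of mouse 3 shows. Mouse 7, on the slide of mouse 2, had -0.03, and mouse 4, on the slide of mouse 6, had -0.35. Without mice 3 and 5, the 200 genes of largest SD were chosen and grouped anew. The largest group at 0.8 then also held 95 genes and was high in mouse 2 (2.04) and mouse 6 (1.32). How many of them are the same genes was not counted. Mice 2 and 6 also had the highest shares of spots well above background in Cy5, 53.0% and 66.3%. The mean of the first group correlated with that share at r = -0.04 over the 12 mice. For the group formed anew without mice 3 and 5, r was 0.54. The part of array signal in these group means was not tested.

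Some listed markers of other cells went with this group. Krt8 (SD 1.35) and Krt18 (1.29) were listed as mesothelial. The 11 measured genes of that list had a median SD of 0.42, against 0.25 for all genes. Of these, 4 lay among the 5% of genes with the largest SD. Msln, Upk3b and Wt1 of the same list had SDs of 0.47, 0.36 and 0.42 and were not among the 200. Hdc, listed for mast cells as the enzyme that makes histamine, had 0.996, while the mast cell protease genes Mcpt4 and Tpsb2 had 0.38 and 0.26. Lcn2, a siderophore-binding protein listed with inflammation, had 1.32, with 1.96 in mouse 5, 0.91 in mouse 2 and 0.48 in mouse 6 and negative ratios in the other mice.

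A group of 7 genes held Defb48, Gpx5, Rnase10, Cstdc2, Wfdc10, Clpsl2 and Aanat. Gpx5 and Rnase10 were the 2 of 14 listed markers of epididymal epithelium that passed the detection rule. The group had a mean centred ratio of 3.21 in mouse 5 and 1.65 in mouse 6, and mouse 2, high in the group of 95, had -0.35. Gpx5 reached 1.76 in mouse 5 and 0.70 in mouse 6, and its ratios in the other 10 mice lay between -2.54 and -0.97. Its SD was 1.37, and 0.997 without mice 3 and 5. In Cy3, the pool signal of Gpx5 was also highest on the array of mouse 5, at a log2 signal of 12.2 against 10.4 to 11.0 on the others.

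A group of 6 genes held Prm1, Prm2, Odf2, an outer dense fibre gene of the sperm tail, and the actin-bundling gene Fscn3. It averaged 3.12 in mouse 1, 0.91 in mouse 5, 0.85 in mouse 6 and 0.74 in mouse 2. The other 8 mice, among them mouse 8 on the slide of mouse 1, lay between -1.33 and 0.07. Without mice 3 and 5, Prm1, Prm2 and Fscn3 again shared a group (5 genes), at 3.22 in mouse 1, and Defb48, Gpx5 and Rnase10 shared one of 19 genes, at 1.84 in mouse 6. A further group of 5 genes, with the ciliary genes Tekt1, Cfap45 and Dnah7b, averaged 1.75 in mouse 2, 1.13 in mouse 1, 1.10 in mouse 5 and 0.53 in mouse 6. The 2 Tekt1 probes correlated at 0.98.

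**Figure D4:**
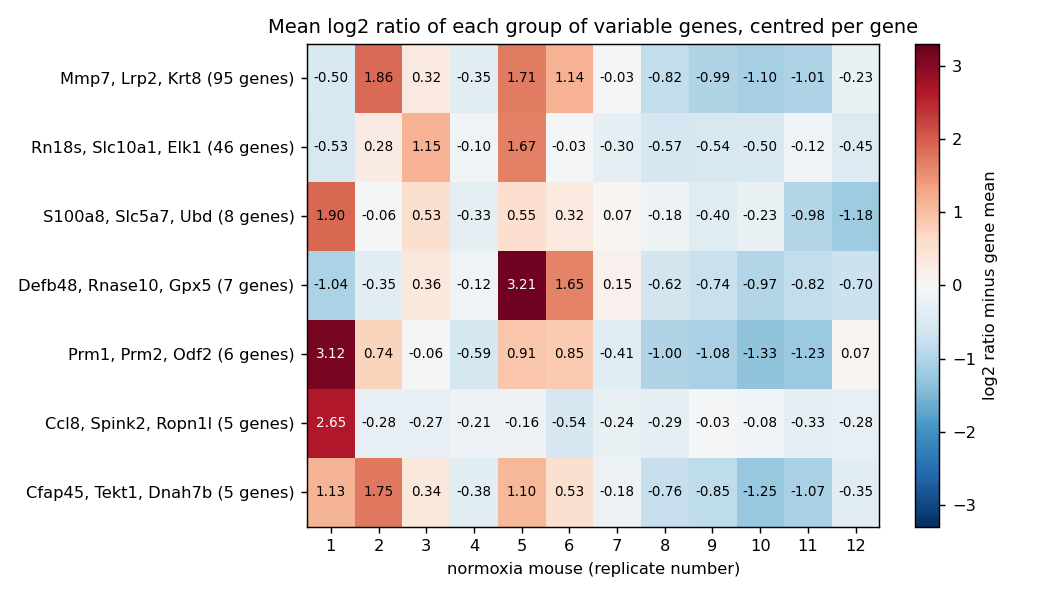
Mean log2 Cy5/Cy3 ratio, centred per gene, of the 7 groups of variable genes taken at a correlation of 0.8, for each of the 12 mice. The group of 95 genes is highest in mouse 2 (1.86), the group with Defb48 in mouse 5 (3.21) and the group with Prm1 in mouse 1 (3.12).

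Markers were also counted as well above background or not on each array, including those that did not pass the detection rule. Of 14 epididymal markers, 12 were well above background in mouse 6, 9 in mouse 5 and 8 in mouse 7, and between 1 and 6 in the others. On the array of mouse 5 only 24.0% of all gene names were well above background, the lowest share, against 64.3% of the epididymal markers. Crisp1, Crisp4, Lcn5, Lcn10, Rnase9 and Ros1 were well above background on 1 array each. Of 12 testis germ cell markers, all 12 were well above background in mice 1 and 6 and 11 in mouse 2. There were 7 in mouse 12, between 1 and 4 in 7 mice and 0 in mouse 3. In mice 1 and 2, 60.5% and 62.1% of all gene names were well above background, and in mouse 6 the share was 75.7%. The part of the array's sensitivity in these counts was not tested.

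**Figure D5:**
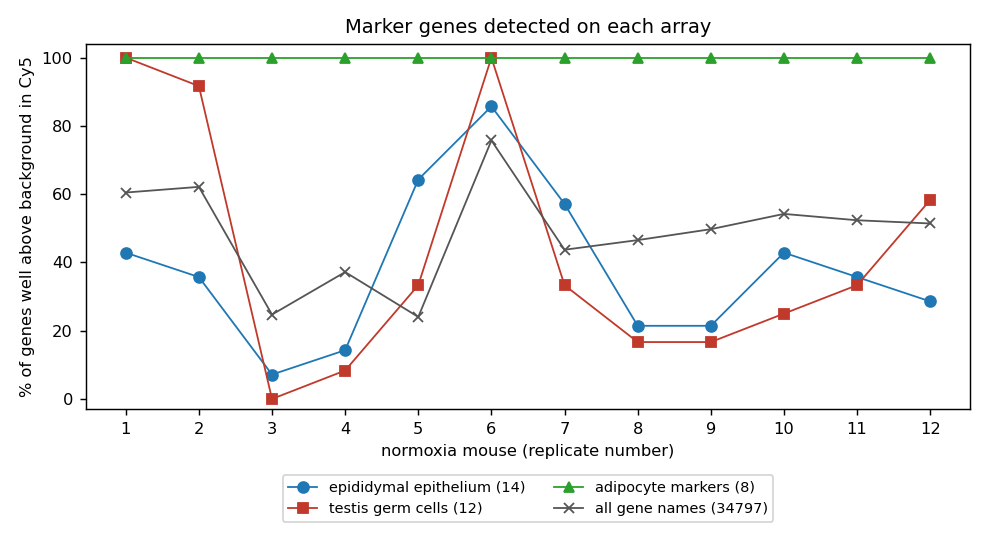
Percentage of listed genes well above background in Cy5 on each of the 12 arrays, for markers of epididymal epithelium (14), testis germ cells (12) and adipocytes (8) and for all gene names. Adipocyte markers are at 100% throughout, and the epididymal markers stand at 64.3% in mouse 5, where all gene names stand at 24.0%.

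In 2 further groups mouse 1 had the highest mean. A group of 8 genes with the calprotectin gene S100a8, the ubiquitin-like gene Ubd and the argininosuccinate synthase gene Ass1 averaged 1.90 there, 0.55 in mouse 5 and -1.18 in mouse 12, the lowest. S100a8, of neutrophils, reached 1.87 in mouse 1, next 0.12 in mouse 6, with a median of -0.73. Csf3r, the other measured marker of the 9 listed for neutrophils, differed from it: its ratio was lowest in mouse 1 (-0.30) and highest in mouse 5 (1.96). A group of 5 with the chemokine gene Ccl8 averaged 2.65 in mouse 1 and between -0.54 and -0.03 in every other mouse. The same 5 include Spink2 and Ropn1l, known from sperm. Ccl8 was at 1.72 in mouse 1, and mouse 1 held 73.3% of its sum of squares. Saa3, an acute-phase protein, was also highest in mouse 1 (1.33). Cell cycle genes, 7 measured of 20, averaged 0.67 in mouse 1 and at most 0.26 in the others.

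The group of 5 found at a correlation of 0.6 was low in mouse 1, with a mean of -1.39, and also low in mouse 5 (-0.77) and mouse 6 (-0.63). It held Adrb3, the beta-3 adrenergic receptor of adipocytes, Pck1, the glyceroneogenic enzyme, the carboxylesterase gene Ces1f, the thrombospondin gene Thbs1 and the methyltransferase gene Inmt. Adrb3 ran from -1.23 in mouse 5 through a median of 0.30 to 1.36 in mouse 11, with an SD of 0.81, and its second probe correlated at 0.91. Pck1 ran from -1.83 in mouse 1 to 1.01 in mouse 3. It was at 0.72 in mouse 11 and 0.69 in mouse 12.

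Other cell types varied moderately. Of the B cell list, 4 of 10 on the array were measured. Jchain, the joining chain of secreted antibodies, had an SD of 0.84, highest in mouse 12 and next in mouse 1 (0.80). The receptor subunit gene Cd79b had 0.51, also highest in these mice and in mouse 4. Macrophage genes, 22 of 25, had a median SD of 0.30, with Csf1r, the receptor of their growth factor, at 0.26 and C1qc, of complement, at 0.14. Globin and other red blood cell genes, 8 of 13, had a median SD of 0.41 and averaged 0.78 in mouse 4 and -0.60 in mouse 6. Cnn1, a calponin of smooth muscle, had 1.16, highest in mouse 2 (1.04), while Acta2 and Tagln of the same list had 0.33 and 0.46.

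Probes of high signal made up a further group of variable genes. It held 46 genes, among them Rn18s, Slc10a1, Elk1, Med16 and Kctd14, and 28 of its probes share 20 bases with probes of at least 5 other genes. Its mean centred ratio was 1.67 in mouse 5 and 1.15 in mouse 3, at most 0.28 in the others, and its lowest value was -0.57. The median SD of its genes was 0.72 with all mice and 0.33 without mice 3 and 5. The 11 genes with a second probe had a median correlation of 0.24 between the probes. Slc10a1 had ratios of 3.05 and 2.66 in these mice and between 0.29 and 1.25 in the rest.

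Slide was tested for every gene, since each of the 6 slides carried 2 of the arrays. The moderated F test of limma called 127 of 12404 genes at an adjusted p under 0.05, which is 1.02% of those tested. Of the 127, 118 were highest on slide 1, and 75 belonged to the 250 brightest genes, which is 30% of those 250. A probe sharing 20 bases with probes of at least 5 other genes stood for 60 of the 127, against 3.14% of all genes. The calls took in 45 of the bright group of 46 genes and 4 of the group of 95. The group of 46 was chosen by spread and correlation in these data and is highest in mice 3 and 5, the mice of slide 1. Its share of the calls follows in part from that choice and is no separate evidence of a slide difference. Slc10a1 had an adjusted p of 0.00146 and Actb of 0.0215, while Lrp2 had 0.0823 and Prm2 0.81. With mice 3 and 5 left out, limma called 0 genes, with 621 (5%) at an unadjusted p under 0.05. This removes slide 1 itself, so the loss of calls that were highest there is nearly given. Slide 1 carries the arrays with the lowest Cy5 shares, so slide and dim signal cannot be told apart for these calls. The share of spots well above background as a covariate gave 0 calls in limma among 12406 genes (0%), with 1431 at an unadjusted p under 0.05. Without mice 2 and 6 it gave 533 calls, and without mouse 6 alone 103.

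Known partners were compared over the mice in 26 measured pairs of 32 listed, by two-sided permutation tests with 100000 resamples and Benjamini-Hochberg adjustment over the 26. The pairs were listed with earlier results of these data known, so their p-values are no independent test. The metallothionein genes Mt1 and Mt2, which bind zinc, had r = 0.85 (permutation p = 0.00051, adjusted p = 0.0133) and rho = 0.77 (permutation p = 0.00495, adjusted p = 0.0872, n = 12). Without the 2 mice farthest on Mt1 (mice 1 and 5) r was 0.70, and after slide means were removed it was 0.73. The smooth muscle genes Acta2 and Tagln had r = 0.79 (permutation p = 0.00281, adjusted p = 0.0365) and rho = 0.75 (permutation p = 0.00671, adjusted p = 0.0872), and r = 0.62 without mice 2 and 4. After slide means were removed their r was 0.77.

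Mest and Lep had r = 0.74 (permutation p = 0.0056, adjusted p = 0.0437) and rho = 0.70 (permutation p = 0.0137, adjusted p = 0.119). Their r was 0.58 without mice 1 and 12 and 0.47 after slide means were removed, where the call was lost (permutation test, adjusted p = 0.197). The values of slide mates then mirror each other, so that test counts more independent values than there are. The globin genes Hba-a1 and Hbb-b2 had r = 0.73 (permutation p = 0.00672, adjusted p = 0.0437) and rho = 0.64 (permutation p = 0.028, adjusted p = 0.146). Without mice 4 and 12 their r was 0.34, so that relation rests on these mice, and within slides it was 0.79. Copies of the alpha globin gene are near-identical among themselves, as are copies of the beta globin gene. The probe of each may therefore not separate the copies of its own chain. By rank, 0 of the 26 pairs passed. Without mice 3 and 5 the adjusted p was 0.0966 for Mt1 and Mt2 (r = 0.71) and 0.0966 for Mest and Lep (r = 0.72). Without mouse 1 it was 0.128 for Mest and Lep and 0.0718 for the globins. Pairs that did not pass included Fasn with Acly, both of fatty acid synthesis (r = 0.13, permutation p = 0.699, adjusted p = 0.865, and rho = 0.11, permutation p = 0.733). Lep with Adipoq had r = 0.23 (permutation p = 0.504, adjusted p = 0.717) and rho = 0.03 (permutation p = 0.921).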

How the data were processed

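The data are scanner output of 12 Agilent arrays with 2 colours (62976 spots, 59305 of them biological). The submitters' processing notes name Feature Extraction, version 10.7.3.1. The signal and background columns used were deposited as intensity values before any normalization. Per the file headers, the log10 ratio column already carries that program's background and dye correction. A value table was deposited as log2 levels, and for its normalization the sources used here give nothing. Both served as alternatives.

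The background was corrected by normexp with an offset of 50, which draws ratios of dim spots toward 0, most of all on the dim arrays of mice 3 and 5. Loess followed within arrays (limma 3.58.1, R 4.3.3). Outlier spots were left out, saturated spots kept, spots of a probe averaged. There was no dye swap. Names were updated through RefSeq GRCm38.p6: 9224 genes by accession, 486 by symbol, 83 by synonym, and 2613 kept the file's name. Coordinates are the files', on mm9. The scripts were tested on simulated data.

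Named genes have a symbol and are the 20 brightest, the 20 of smallest SD without saturated spots, the 30 of largest SD, up to 8 nearest each group mean, and members of the gene lists and pairs; others were chosen after their values were seen. Members, lists and pairs were chosen with earlier results of these data known. The number of arrays limits the precision: an SD over 12 mice has a 95% chi-square interval, given where printed. It assumes normally distributed values and a gene not chosen for its SD. Alternatives changed the background correction, scaling, detection rule, probe choice, measure of spread and arrays used.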

Additional observations from a re-analysis of the deposited data

How the results depend on the processing

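The 100 brightest genes were shared to 98 to 100 under each alternative run. The count of genes with SD over 0.5, 433, was 2723 with Feature Extraction's log ratio, 858 with an offset of 10, 2014 with plain subtraction, 250 with detection on all 12 arrays, 7508 in the deposited value table and 254 by the median absolute deviation; leaving out 1 mouse gave 368 to 483. Of the 200 genes with the largest SD, 37 were shared with the deposited value table (Spearman 0.09 over all genes), 92 with plain subtraction (0.67), 116 with detection on all 12 arrays, 121 with Feature Extraction's log ratio (0.48), 126 by the median absolute deviation and 150 to 197 under the other settings. The largest group of 160 genes had 84 members with plain subtraction, 105 after scale normalization, 88 with detection on all 12 arrays and 95 at a correlation of 0.8, and 115 to 186 when 1 mouse was left out. The 127 slide calls became 196 with Feature Extraction's log ratio, 3 with an offset of 10 and 2 with plain subtraction. They were 253 after scale normalization, 62 with the mean of all probes and 8901 in the value table. Without mice 3 and 5, which removes slide 1, they were 0. They ranged from 2 (without mouse 5) to 278 (without mouse 4), and were 68 without mouse 1, 54 without mouse 3, 226 without mouse 7, 54 without mouse 9 and 49 without mouse 10. The 0 calls on array signal became 146 with Feature Extraction's log ratio, 35 with plain subtraction and 533 without mice 2 and 6; leaving out 1 mouse gave 0 to 103, the latter without mouse 6. The 4 pair calls became 11 with Feature Extraction's log ratio, and were 3 without mice 3 and 5 and 3 without mouse 1. Without mice 3 and 5 the globins and Acta2 with Tagln stayed, and H2-Aa with Cd74 entered (permutation test, adjusted p = 0.0401). Without mouse 1, Mt1 with Mt2 and Acta2 with Tagln stayed, and Upk3b with Msln entered (permutation test, adjusted p = 0.0449). After slide means were removed 7 pairs passed, with 4 pairs gained and Mest with Lep lost. The values of slide mates then mirror each other, so the permutation test counts more independent values than there are. Those 7 calls are therefore not relied on. The cause of these changes was not tested. The grouping at 0.8, the slide test without some mice, the groups with 1 mouse left out and the pairs without mouse 1 were added after seeing the data. No paired analysis was possible because there is 1 group and no comparison between groups. A dim Cy5 signal on the arrays of mice 3 and 5 limits what can be read there for genes of low signal.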
